A study of Homo sapiens with 6 samples.

Results

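A total of 218 PRMT5 peaks were found in the same place in LNCaP and PC3 cells. They are the entries of the LNCaP PRMT5 peak list on chromosomes 1 to 22, X and Y that share at least 1 bp with an entry of the PC3 PRMT5 list and lie more than 1 Mb from both ends of their chromosome in hg38. Of the 819 LNCaP PRMT5 peaks that meet the position limits, the 218 shared peaks are 26.6%, and their 214 PC3 partners are 14.7% of 1456 PC3 PRMT5 peaks. The other 601 LNCaP peaks and 1242 PC3 peaks had no partner. The members were thus chosen by the called positions in both lists, so these counts describe the rule and no test is drawn from them. Without the limit at chromosome ends 298 of 980 LNCaP peaks, 30.4%, had a partner, of which 80 were left out.

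LNCaP is an androgen-responsive human prostate cancer cell line and PC3 an androgen-independent one. Each line, grown in RPMI-1640, gave 1 library with a PRMT5 antibody, 1 with a METTL3 antibody and 1 control library, titled IgG and listed with a secondary antibody alone, so that there were 6 libraries and 4 peak lists with 10504 entries. The assay used 100000 cells per library: antibodies bind in situ and guide a protein G-Tn5 transposase, which cuts and tags the DNA nearby. The labels name no genetic change and no drug for either line. With 1 library per group there was no spread between replicates to compare with, no test was run between groups, and every interval is an exact 95% binomial or order-statistic interval that covers counting error only.

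PRMT5 is the main enzyme that places symmetric dimethyl marks on arginines, on histones H4, H3 and H2A and on spliceosome and other proteins, and it works in a complex with WDR77. It has no sequence-specific DNA-binding domain of its own and reaches chromatin through partner proteins. METTL3 carries the active site of the m6A writer, the complex that methylates adenosines in RNA. The palindrome CACGTG, the E-box, is the core read by a family of basic helix-loop-helix factors that includes TFEB, TFE3, MITF, USF1, USF2, MYC and MAX. Its extended form TCACGTGA is the centre of the element shared by many lysosomal gene promoters, which TFEB and TFE3 bind.

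Promoters under strong shared peaks are shown first, so that the E-box can be seen in its context. They were picked for holding it, and its frequency is given further on over all windows. The 8 stretches below come from the RefSeq promoter windows (GRCh38.p14, 250 bases before to 50 after a gene's start) with the largest smaller fold of the 2 lines in which CACGTG and both summits lie in the window and the CACGTG nearest to the LNCaP summit lies outside every gene of the RefSeq gene table, which passes over stronger peaks such as those of WASHC2C, TRMO, WBP2, GALNS and C19orf47. They read 5′ to 3′ along the gene, and capitals mark each CACGTG.
RMND1 (chr6:151452175-151452240, minus strand): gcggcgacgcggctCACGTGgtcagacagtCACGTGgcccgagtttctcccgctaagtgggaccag
ATP6V0D1 (chr16:67481181-67481246, minus strand): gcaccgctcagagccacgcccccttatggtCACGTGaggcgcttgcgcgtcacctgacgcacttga
SPNS1 (chr16:28974528-28974563, plus strand): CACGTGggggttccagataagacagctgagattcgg
BAX (chr19:48954707-48954772, plus strand): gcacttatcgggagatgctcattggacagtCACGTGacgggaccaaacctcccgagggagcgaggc
RRAGC (chr1:38859849-38859892, minus strand): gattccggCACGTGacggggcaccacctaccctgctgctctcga
CDK4 (chr12:57752491-57752556, minus strand): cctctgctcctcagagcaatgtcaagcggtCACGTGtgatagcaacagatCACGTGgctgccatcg
EIF4H (chr7:74174127-74174192, plus strand): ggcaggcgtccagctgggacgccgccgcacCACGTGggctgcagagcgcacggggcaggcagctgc
FNIP1 (chr5:131797157-131797222, minus strand): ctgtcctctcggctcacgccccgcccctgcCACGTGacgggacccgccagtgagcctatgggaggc
RMND1 and CDK4 each show 2 copies within the stretch printed. ATP6V0D1 and BAX show the extended form, in which a T precedes and an A follows the core. The 3 windows without CACGTG that rank highest by the same rule are given for contrast, around the LNCaP summit. LOC128125814 is a RefSeq gene whose window lies under the same peak as that of DDIT3.
GRN (chr17:44345104-44345169, plus strand): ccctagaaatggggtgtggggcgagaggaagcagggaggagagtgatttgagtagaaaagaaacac
WDR81 (chr17:1716375-1716440, plus strand): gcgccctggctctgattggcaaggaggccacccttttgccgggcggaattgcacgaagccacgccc
LOC128125814 (chr12:57520649-57520714, minus strand): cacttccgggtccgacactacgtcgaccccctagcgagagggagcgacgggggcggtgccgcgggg

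Shared peaks sat mostly at gene starts, with either end counted for genes without a listed start. The LNCaP summit lay within 3 kb of the start of a protein-coding gene (either end, for genes whose start is not in the promoter table) at 123 of 218 peaks, 56.4% (49.6 to 63.1%). At 24 of the 123 the nearest such point was an end of a gene without a listed start, which may be its 3′ end. The background was 35.4% of all 819 LNCaP PRMT5 peaks. Among unshared peaks the share was 27.8% in LNCaP (167 of 601, 24.2 to 31.6%) and 19.6% in PC3 (244 of 1242, 17.5 to 21.97%), intervals that do not overlap that of the shared peaks. The PC3 summits of the shared peaks gave the same 123.

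As a ratio, the contrast with unshared peaks was wider close to the start, while within 100 bp the gap in percentage points was smaller. Within 500 bp lay 45.4% of shared summits, against 19.1% of LNCaP-only and 6.68% of PC3-only summits. Within 100 bp the shares were 18.8%, 7.65% and 2.174%. The 123 peaks at starts had a median distance of 166 bp from the start. METTL3 peaks were seldom there, with 8.28% (12 of 145) in LNCaP and 4.28% (314 of 7334) in PC3 within 3 kb.

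**Figure D1:**
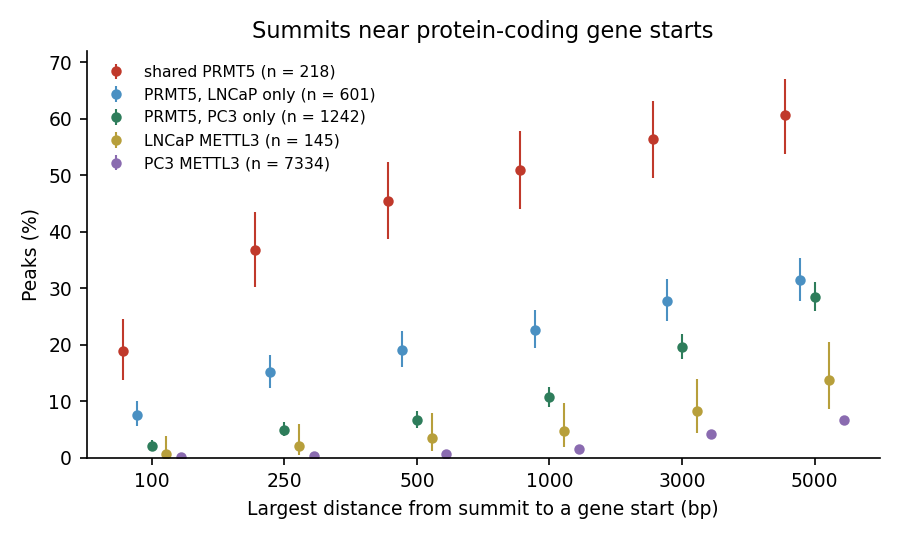
Percentage of peaks (y axis) whose summit lies within a given distance of a protein-coding gene start (x axis, bp) in 5 sets of peaks; points are shares and bars exact 95% intervals. Shared PRMT5 peaks, at 45.4% within 500 bp and 56.4% within 3000 bp, lie above the unshared PRMT5 peaks of each line and above both METTL3 lists at every distance drawn.

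High folds were more frequent among shared peaks, so the share at starts was also read within quartiles of the LNCaP fold, the caller's enrichment over the control. In the lowest quartile (1.21 to 5.29) 22 of 58 shared peaks were at a start (37.9%) against 17 of 147 LNCaP-only peaks (11.6%). In the highest (8.25 to 60.8) they were 64 of 81 (79.01%) against 54 of 124 (43.5%). The quartiles between gave 41.0% (25.6 to 57.9%) against 27.7% (21.1 to 35.2%) and 52.5% (36.1 to 68.5%) against 30.5% (23.5 to 38.1%), with overlapping intervals. The share of shared peaks was the higher in each quartile, with intervals apart in the lowest and the highest, and it rose with the fold in both sets.

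Of the 95 shared peaks away from starts, 40 lay inside a protein-coding gene, 16 inside a gene of another type and 39 between genes, and 28 were over 100 kb from any protein-coding gene start. Chromosome 19, which is dense in genes, held the most shared peaks, 30, of which 22 were at a start. Chromosome 1 held 20, chromosome 12 held 18 and chromosome 16 held 16. Shared peaks were 41.7% of the LNCaP PRMT5 peaks on chromosome 19, 41.0% on chromosome 16 and 40.9% on chromosome 12, but 9.09% (1 of 11) on chromosome 15 and 7.14% (1 of 14) on chromosome 18.

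Some loci carried several shared peaks. Grouping peaks within 10 kb gave 21 groups with 51 of the 218. The largest, chr12:57746821-57754948, held 7 peaks over TSPAN31, CDK4 and MARCHF9, 6 of them at a gene start. CDK4 is the cyclin D-dependent kinase of the G1 phase. A second, chr14:20454805-20462627, held 5 peaks, all at starts or ends of APEX1, OSGEP and PIP4P1. The third, chrY:11327613-11331145, held 3 peaks far from any protein-coding gene.

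A total of 145 protein-coding genes had a shared peak within 3 kb, 0.724% of 20037, and this is the background for the gene lists below. Of 24 gene lists, the 4 with the highest shares were of the lysosome and of the membrane traffic that feeds it. A shared peak was found at 7 of 50 genes of endosome tethering, retromer and the WASH complex (14%) and at 8 of 58 lysosomal enzymes and activators (13.8%). It was found at 6 of 53 lysosomal membrane proteins (11.3%) and 4 of 38 Rag, Ragulator, folliculin and mTORC1 genes (10.5%). The vacuolar proton pump had 2 of 30 (6.67%). The enzymes, membrane proteins, Rag genes and pump together gave 20 of 179 genes (11.2%) and 26 of the 123 shared peaks at starts. The other 97 of those peaks were at genes outside these lists. High shares here were not particular to shared peaks. LNCaP-only peaks were at 13.3% of pump genes, 5.17% of enzymes, 5.66% of membrane proteins, 7.89% of Rag genes and 4% of endosome genes. PC3-only peaks were at 10%, 6.90%, 7.55%, 0% and 4% in the same order. Of all protein-coding genes 0.968% had an LNCaP-only peak and 1.17% a PC3-only peak. The lists were drawn up with earlier results on these peaks known, so the shares describe them and are no independent support. A peak can also stand near several genes, as 40 of the 218 did: that of GLA also lay at HNRNPH2 and that of LAMTOR1 at TOMT. Folds below are given for both lines, but each belongs to its own list and the 2 lists share no scale.

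Among the enzymes, the highest fold was at GALNS, the sulfatase that removes sulfate from keratan sulfate. Its peak, chr16:88856907-88857463, had a fold of 29.8 in LNCaP and 10.8 in PC3, and it also covers the start of TRAPPC2L, a subunit of a vesicle tethering complex. GRN, which encodes progranulin, had 10.98 and 10.1. In each line both genes stood above the median shared peak, 6.71 in LNCaP and 6.10 in PC3. NEU1, the lysosomal sialidase, had 6.92 in LNCaP and 10.4 in PC3. GLA, alpha-galactosidase A, had 9.46 and 5.64. CTSA, the cathepsin that protects NEU1 and beta-galactosidase, had 9.50 and 3.04. The PC3 values of CTSA, GAA, GNPTG and GLA were below the PC3 median. GAA, the enzyme that digests lysosomal glycogen, had 7.40 and 3.97. GNPTG, a subunit of the enzyme that starts the mannose 6-phosphate tag, had 6.39 and 5.11. The LNCaP summits at the enzyme genes named here lay between 80 and 257 bp from the start.

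Among membrane proteins, PIP4P1 carried the highest LNCaP fold of all shared peaks. PIP4P1 encodes a phosphoinositide phosphatase of late endosomes and lysosomes. The peak, chr14:20461441-20462070, had a fold of 60.8 in LNCaP and 10.4 in PC3. CLCN6, a chloride-proton exchanger of late endosomes, had 23.4 and 7.33. MCOLN1, the lysosomal calcium channel, had 17.04 and 4.03. CLN3, the protein lost in juvenile Batten disease, had 12.7 and 5.54. These 4 genes lay well above the median of shared peaks in LNCaP, while in PC3 their folds ran from 4.03 to 10.4, on both sides of it. SPNS1, a lysosomal lipid transporter, was high in each, with 12.1 and 11.8. LAMP1, the abundant lysosomal membrane glycoprotein, had 2 LNCaP peaks that overlap the same PC3 peak, of fold 16.5. The LNCaP peak with a fold of 5.06 had its summit 97 bp from the start, 1 bp from the PC3 summit, and the other, with 6.58, had its summit 499 bp after the start.

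The 2 pump genes were ATP6V0D1, with folds of 18.4 in LNCaP and 12.9 in PC3, and ATP6V1G1, with 32.4 and 5.43. The first encodes a subunit of the membrane sector of the proton pump that acidifies lysosomes, and the second one of its peripheral stalk. In the nutrient-sensing group, RRAGC, a Rag GTPase that recruits mTORC1 to lysosomes, had 16.1 and 11.5. FNIP1, the folliculin partner, had 10.3 and 8.83. LAMTOR1, the Ragulator subunit that anchors the complex in the membrane, had 23.8 in LNCaP and 2.54 in PC3. Its PC3 peak was weakly called, with a −log10 q of 1.47 against a PC3 median of 8.97 for shared peaks. AKT1S1, an mTORC1 inhibitor, had 8.996 and 2.59, with its summit 843 bp from an end of the gene and 189 bp from an end of TBC1D17. The order of folds thus differed between the lines within these small groups.

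In the endosome group, WASHC2C and WASHC2A are near-identical copies, and reads could have been split between them, so their values are uncertain. WASHC2C had folds of 16.6 in LNCaP and 18.98 in PC3, and WASHC2A had 14.04 and 10.6. VPS33A and VPS11, subunits of the complexes that tether endosomes and lysosomes, had 5.37 and 19.8, and 8.62 and 6.72. RAB5A, the early endosome GTPase, had 7.57 and 4.77. VPS26A, a retromer subunit, had 6.33 and 3.93, and VPS26C, of the related retriever complex, had 5.57 and 4.89. VPS33A, VPS26A and VPS26C were below the LNCaP median, and of them VPS33A was far above the PC3 median. Of the 45 autophagy genes, GABARAP, which attaches to autophagosome membranes, had a shared peak (11.6 and 6.92, 547 bp before the start).

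Other lists had few or none. The apoptosis and p53 list had 2 of 28. BAX, the mitochondrial pore former, had folds of 21.21 and 11.5 at chr19:48954441-48955143, and CASP9 lay 1997 bp from the summit of a peak at DNAJC16. The unfolded protein and stress list had 2 of 34. These were DDIT3, the stress transcription factor CHOP, with 7.09 and 6.77, and DNAJB9, an endoplasmic reticulum chaperone, with 8.25 and 5.89. Lists with 1 gene each were the mitochondrial ribosome and translation (1 of 54, RMND1), cell cycle and replication (1 of 40, CDK4), DNA repair (1 of 39, APEX1), the spliceosome core (1 of 37, SNRPA), AP-1 and immediate early genes (1 of 28, DUSP1) and the m6A machinery (1 of 22, RBM15).

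RMND1, needed for mitochondrial translation, had 20.2 and 19.2, the highest smaller fold of any shared peak at a gene start. CDK4 had 13.9 and 10.0, and APEX1, the base excision repair nuclease, had 11.5 and 8.43. RBM15, an RNA-binding partner of the METTL3 complex, had 16.6 in LNCaP and 3.96 in PC3. SNRPA, a protein of the U1 particle, and DUSP1, a MAP kinase phosphatase, were below the median shared peak in LNCaP, at 2.98 and 3.11, and above it in PC3, at 26.2 and 10.97. The SNRPA peak had its summits 579 bp from that start in LNCaP and 608 bp in PC3. Both summits lay in the promoter window of ACTMAP, so the peak cannot be assigned to SNRPA alone.

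No shared peak was found at any of 36 E-box binding factors and clock genes, of which 5 had an LNCaP-only peak, nor at 46 genes of mitochondrial respiration, 58 ribosomal proteins, 28 SR and hnRNP regulators or 13 arginine methyltransferases and methylosome genes. The same held for 22 genes of the androgen response, 14 mesenchymal and basal genes and the lists of immune (14), neuronal (11) and hepatocyte and fibroblast genes (12). At the background of 0.724% a list of such size would hold few peaks or none. Markers of the lines, KLK3, KLK2, TMPRSS2 and FOLH1 for LNCaP and VIM, CD44 and AXL for PC3, had no PRMT5 peak within 3 kb in either list, so the lists give no check of the cells' identity.

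Outside the gene lists, the highest smaller folds were at a region between genes, chr17:74513219-74515690, 17251 bp from the start of CD300LB, with 22.3 in LNCaP and 23.97 in PC3. TRMO, a tRNA methyltransferase, had 16.0 and 16.6. SGTA, a co-chaperone, had 17.7 and 12.4, and RAP2A, a small GTPase, had 12.7 and 11.5. WBP2, a transcription coactivator, had 12.97 and 11.04, and LACTB2, a mitochondrial endoribonuclease, had 12.6 and 10.9. C19orf47 had 17.3 and 10.3, under a peak that also covers the start of PLD3, a lysosomal nuclease that was not on a list. EIF4H, a translation initiation factor, had 9.84 and 13.8. A peak 4353 bp from an end of PLA2G1B had 11.03 and 20.4, and one 33321 bp from MEF2D had 15.7 and 10.5. These 10 peaks include 3 that lie outside the 3 kb window, and the peaks at TRMO, SGTA, WBP2, C19orf47 and EIF4H lay over promoter windows.

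Over all 218, the median fold was 6.71 in LNCaP (6.39 to 7.56, range 1.21 to 60.8) and 6.10 in PC3 (5.41 to 6.77, range 1.17 to 26.2). LNCaP-only peaks had a median of 6.43 and PC3-only peaks 5.89. By the caller's −log10 q the shared peaks stood further off, with a median of 8.42 (6.78 to 10.2) against 5.30 (5.24 to 5.32) for LNCaP-only peaks, and of 8.97 (7.09 to 10.9) against 4.33 for PC3-only peaks. A fold of at least 10 was found at 25.7% of shared peaks against 10.8% of LNCaP-only peaks, and at 19.2% of the PC3 partners against 3.30% of PC3-only peaks. Shared peaks at starts had medians of 8.62 and 6.92, and those elsewhere 5.76 and 5.19.

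Folds in the 2 lines followed each other weakly. Spearman's rho across the 218 peaks was 0.26, with 0.08 at the 123 starts and 0.41 at the 95 peaks elsewhere. Each correlation is across peaks of 2 libraries, which are not replicates, and is a description. At 23 peaks the LNCaP fold was one that another shared peak also had.

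**Figure D2:**
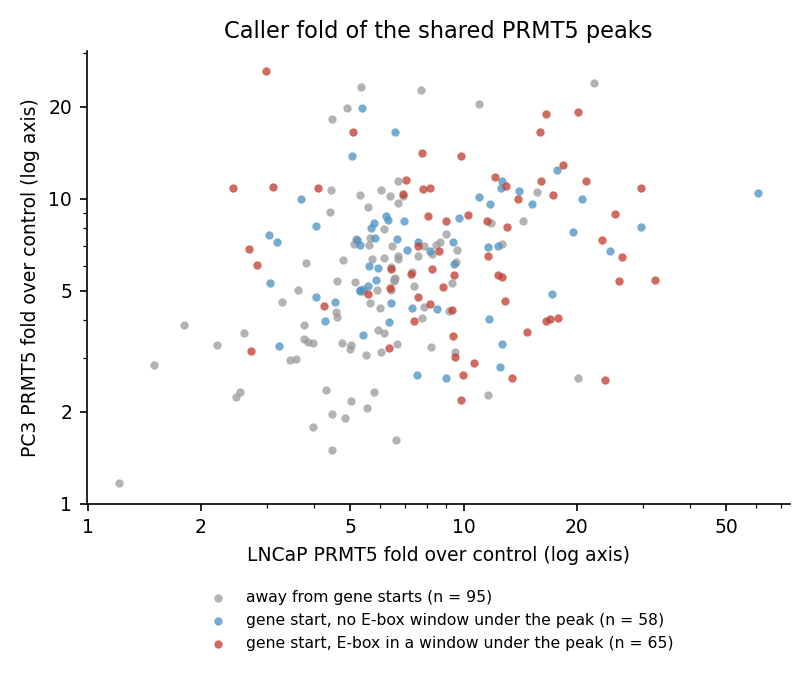
The authors' caller's fold over control of each of the 218 shared peaks in LNCaP (x axis, log) and PC3 (y axis, log), coloured by place and by an E-box in a promoter window under the peak. Peaks at starts reach 60.8 in LNCaP and 26.2 in PC3, and high values in one line go with a wide range of values in the other.

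Shared peaks were narrow in each line. The median width was 239 bp in LNCaP (212 to 274, range 110 to 2472) and 310.5 bp in PC3 (285 to 335, range 164 to 2387). Unshared peaks were narrower, at 162 bp (155 to 170) and 217 bp (210 to 225), and since a wider peak overlaps another more easily the rule itself sets part of this. The PC3 peak was the wider at 143 of 218 (65.6%), with a median ratio of PC3 to LNCaP width of 1.33. Among the 128 peaks that overlapped over at least 50% of both, a rule that bounds this ratio, the medians were 280.5 bp in LNCaP and 284 bp in PC3. The shortest peaks called were 110 bp in LNCaP and 164 bp in PC3, in shared and unshared sets alike, so the callings of the lists differed in their smallest width. The LNCaP peak lay wholly inside the PC3 peak at 88 (40.4%) and the reverse held at 32 (14.7%).

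Peaks at starts measured 289 bp in LNCaP and 326 bp in PC3, and those elsewhere 205 and 287 bp. Spearman's rho of the widths was 0.45 at starts and 0.15 elsewhere, a description as above. The widest LNCaP peaks were the one near CD300LB, 2472 bp (1320 bp in PC3), that of APEX1, 1096 bp (945 bp in PC3), and that of AMDHD2, 1047 bp. AMDHD2, an enzyme of amino sugar catabolism, had the widest PC3 peak, 2387 bp, which covered 2 LNCaP peaks of 355 and 1047 bp. VPS33A came next in PC3, with 1625 bp against 708 bp in LNCaP.

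**Figure D3:**
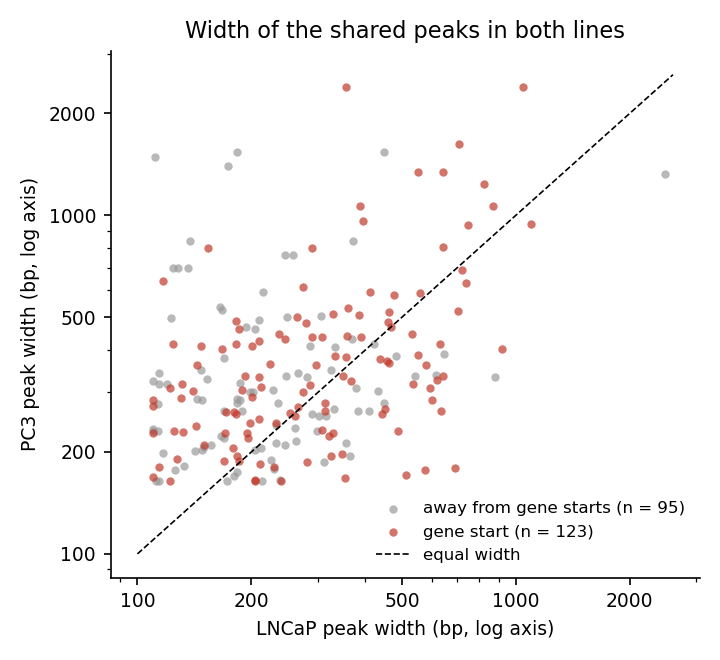
Width in bp of each shared peak in LNCaP (x axis, log) and of its PC3 partner (y axis, log), by place, with a dashed line of equal width. Of 218 points, 143 lie above the line, and the medians are 239 bp in LNCaP and 310.5 bp in PC3.

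The summits of the 2 lines lay close together. Their median gap was 37.5 bp (29 to 47, range 0 to 960), and it was at most 50 bp at 126 peaks (57.8%), 100 bp at 176 (80.7%) and 250 bp at 205 (94.0%). The gap was 37 bp at starts and 41 bp elsewhere. Overlap of narrow peaks bounds this distance. At WASHC2C and ATP6V0D1 the summits were 1 bp apart, and at AMDHD2, the largest gap, 960 bp. The shared stretch had a median of 191 bp. Among the shortest overlaps were 7 bp near MLXIP and 56 bp at VPS26C. Among the nearest LNCaP peaks outside the rule, those near TSNARE1 and MICAL3 missed a PC3 peak by 19 and 26 bp.

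METTL3 peaks coincided with shared peaks about as often as with all PRMT5 peaks. In LNCaP 18 of 218 (8.26%, 4.97 to 12.7%) overlapped a METTL3 peak of the same line, against a background of 6.84%, and in PC3 20 of 218 (9.17%, 5.69 to 13.8%), against 9.48%. Among the 120 shared peaks with a PRMT5 fold of at least 5 in both lists the shares were 3.33% in LNCaP and 4.17% in PC3. For these 2 shares the METTL3 lists were cut at 5 as well. Weaker METTL3 peaks, such as those near SPDYE17 (3.82 in LNCaP and 2.97 in PC3), thus dropped out. The 2 shares are therefore not comparable with the backgrounds above, which count every METTL3 peak. The PRMT5 and METTL3 lists of a line share their control library. The 31 peaks with METTL3 in either line lay mostly away from genes' starts: 2 of 123 peaks at starts (1.63%) had it and 29 of 95 elsewhere (30.5%).

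The 2 at starts were near LOC124907874, where the PC3 METTL3 fold was 5.70, and KISS1, where the LNCaP METTL3 fold was 7.34. At 7 peaks METTL3 was found in both lines, and all 7 lay at least 8.67 kb from a gene start. The peak inside SELP, the platelet and endothelial adhesion gene, had METTL3 folds of 10.5 in LNCaP and 5.10 in PC3. Another lay inside SERINC2, 18.04 kb from its start (2.97 and 3.39). The others lay 353 kb from EDEM1 (9.06 and 4.58), 49.4 kb from PTGIS (4.11 and 5.05), 340 kb from TSNARE1 (4.84 and 2.58), 34.9 kb from SPDYE17 (3.82 and 2.97) and 38.4 kb from SOX8 (2.78 and 2.56). The SOX8 peak was also the shared peak nearest to a chromosome end, 1025 kb from an end of chromosome 16. The peak left out that came closest to the limit, near PTPRN2, lay 986 kb from an end of chromosome 7.

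Most promoters under shared peaks held the E-box. Of 218 peaks, 80 overlapped at least 1 of 22199 promoter windows, 113 windows of 96 genes in all. CACGTG was found in 86 of these 113 windows, 76.1% (67.2 to 83.6%), and in 8.34% of all windows. Windows with a GC content of at least 60%, the lower quartile of those under shared peaks, held it in 10.3%. Counted per peak the share was 65 of 80 (81.3%) and per gene 75 of 96 (78.1%).

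Promoters under unshared peaks held the E-box too, in 67 of 114 (58.8%, 49.2 to 67.9%) in LNCaP and 30 of 61 (49.2%, 36.1 to 62.3%) in PC3. For the extended form TCACGTGA the interval of the shared peaks did not overlap those of the unshared ones. It was found in 49.6% of windows under shared peaks (40.02 to 59.1%), in 19.3% (12.5 to 27.7%) under LNCaP-only and 14.8% (6.98 to 26.2%) under PC3-only peaks, and in 1.27% of all windows. TCACGTGA contains CACGTG, so the counts are nested. No test of these differences was run.

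The other motifs searched had smaller excesses over all windows, or none. The GC box GGGCGG was in 79.6% of windows under shared peaks, 81.6% under LNCaP-only peaks and 56.3% of all windows (80.2% of those with a GC content of at least 60%). The CCAAT box was in 46.9%, 57.9% and 34.7%, and the ETS core CCGGAAG in 29.2%, 15.8% and 12.8%. ATGGCG, the YY1-type core, was in 23.01%, 18.4% and 13.1%. The AP-1 motif TGANTCA, at 5.31%, and the CRE TGACGTCA, at 2.65%, were near their 6.15% and 2.26% in all windows. A motif read by NRF1 was in 0.885%. All were searched on both strands. Among all 2080 words of 6 bases, with both strands read as 1, CACGTG had the largest excess over all windows, 67.8 percentage points. The word that came next, ACGTGA, overlaps it. CACGTG also ranked first under the unshared peaks of each line.

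**Figure D4:**
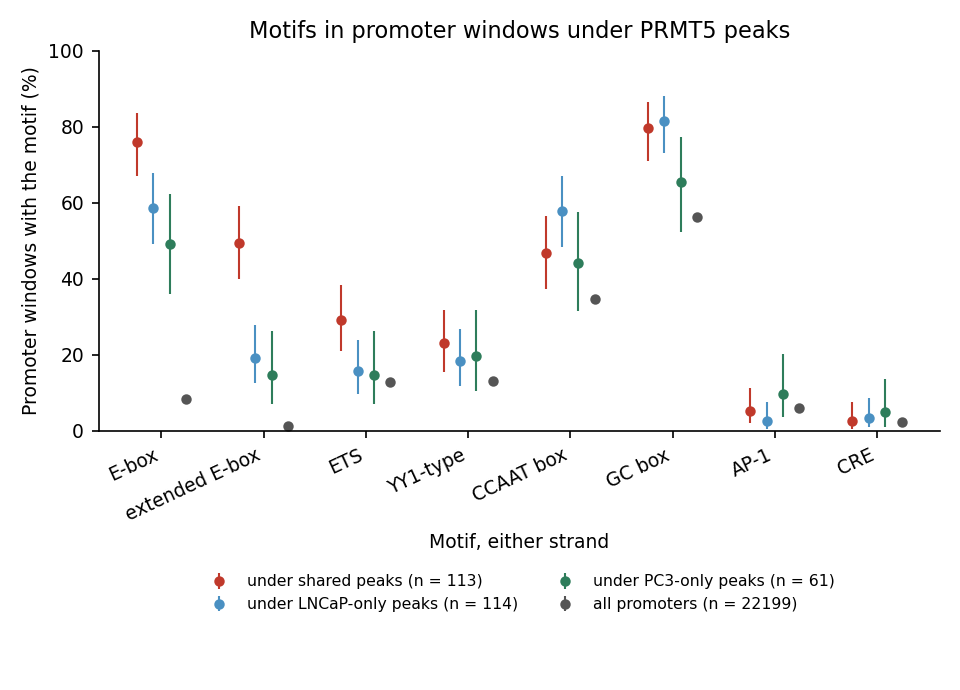
Percentage of promoter windows that hold each motif on either strand (y axis) under shared, LNCaP-only and PC3-only PRMT5 peaks and in all 22199 windows; bars are exact 95% intervals. The E-box is at 76.1% under shared peaks against 8.34% of all windows, and its extended form at 49.6% against 1.27%.

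The E-box lay close to the summits. At the 65 peaks with one in a window, the median distance from the nearest CACGTG to the summit was 26.5 bp in LNCaP (21.5 to 31.5) and 28.5 bp in PC3 (23.5 to 41.5), and it was at most 50 bp at 51 (78.5%) and 44 (67.7%). Medians were longer for the GC box (57 and 52 bp at 66 peaks), the CCAAT box (71 and 97 bp at 39) and the YY1-type core (166.5 and 111.5 bp at 21). The ETS core lay over 100 bp from the summit at 13 of 23 peaks in LNCaP and 12 of 23 in PC3. The CACGTG nearest to the LNCaP summit had a median position of 87.5 bp upstream of the start, and it was upstream at 59 of 65. Where the summits of both lines lay in the window, 73 of 79 windows held CACGTG (92.4%).

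**Figure D5:**
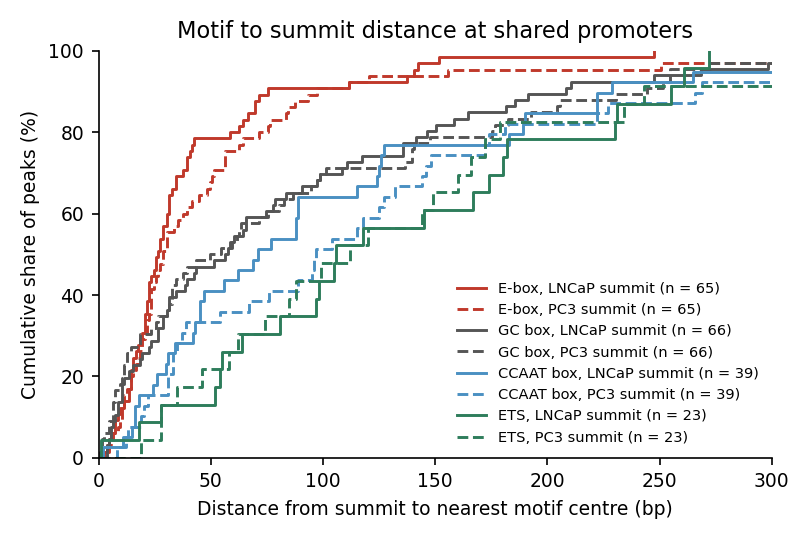
Cumulative share of shared peaks with a motif in a promoter window (y axis, %) against the distance from the summit to the nearest motif centre (x axis, bp, drawn to 300), for LNCaP (solid) and PC3 (dashed) summits. The E-box curves rise first, with medians of 26.5 and 28.5 bp, against 57 and 52 bp for the GC box.

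The number of CACGTG copies varied among windows: 27 had none, 34 had 1, 37 had 2, 11 had 3, 3 had 4 and 1 had 6. The window with 6 was that of LAMP1, under the peak whose summits are 1 bp apart. BAX had 4 copies, 3 of them extended, and APEX1 and CDK4 had 3. Lysosomal genes were not the only carriers. Windows under shared peaks at the 4 lysosomal lists held it in 16 of 18 (88.9%, 65.3 to 98.6%) and the other windows in 70 of 95 (73.7%, 63.6 to 82.2%), intervals that overlap. GRN and GLA were the lysosomal genes without a copy in their own window, though the HNRNPH2 window under the GLA peak held 2. WDR81, SGTA, DDIT3, LDHA and SLC33A1 were among the other genes without a copy in the window. At SGTA, LDHA and SLC33A1 the summits of both lines lay outside the window, so the sequence at those summits was not searched.

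The E-box was found under weaker and stronger shared peaks. Windows under peaks whose smaller fold was at least 5.82 held CACGTG in 42 of 57 (73.7%) and the rest in 44 of 56 (78.6%), and TCACGTGA in 38.6% and 60.7%; these differences were not tested. Among shared peaks with CACGTG in a window the median fold was 9.84 in LNCaP and 6.47 in PC3, and among the 15 whose windows lacked it 7.56 and 6.77. With 15 peaks in the smaller set these medians are imprecise, and their difference was not tested. The LNCaP summit lay a median of 274 bp from the gene start in that set, against 97 bp in the set with CACGTG. At many of the 15, such as SGTA, SLC33A1, ZZZ3, LDHA and KHSRP, it lay outside the searched window. The sequence at those summits was not read, so the medians compare searched windows and not the presence of an E-box at the summit.

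The reads behind each list, and so its depth, are unknown here. A shared peak means that both lists pass the authors' threshold at that place, and an unshared one that 1 list does not.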

How the data were processed

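Peak lists of 4 libraries were used, with 1 library per group. The submitters' processing notes name hg38 and, for demultiplexing, trimming, alignment and peak calling, bcl2fastq 2.17, Trimmomatic 0.33, Bowtie 1.1.1 and MACS2 2.1.0, besides ChIPseeker. Their settings and any duplicate removal are not stated there, and depth is unknown. For each peak the authors deposited a score, a fold over control (a ratio), −log10 p and −log10 q, which are their caller's own values and were used only within a list.

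Peaks sharing at least 1 bp were matched; with several partners the stronger was used. Starts came from RefSeq promoter windows of GRCh38.p14, which share hg38 coordinates and cover 15843 of 20037 protein-coding genes; for the other 4194 either end from the RefSeq gene table was used. Of 812 names in 24 gene lists, 810 matched. Python 3.11.15, pandas 2.3.3 and SciPy 1.17.1 were used, and the procedures were tested on simulated data. Intervals are exact (Clopper-Pearson or order-statistic) at 95%. Genes were named for the 20 largest smaller folds, the 3 widest peaks per line, list membership, the 3 shortest overlaps and gaps, and METTL3 in both lines. Members and lists were chosen with earlier results of these data known. A few items that these rules select are not reported here.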

Additional observations from a re-analysis of the deposited data

How the results depend on the processing

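Of 33 alternatives, 21 moved a value by less than its interval or a count by less than 1.5 times. Requiring an overlap of at least 50% of both peaks left 128 shared peaks, with a median LNCaP fold of 7.66. Their median widths were 280.5 bp in LNCaP and 284 bp in PC3. That rule bounds the ratio of the 2 widths, so it sets part of their closeness. A PRMT5 fold of at least 5 in both lists left 120, with 63.3% at starts. METTL3 peaks, there limited to a fold of at least 5 too, were at 3.33% in LNCaP and 4.17% in PC3. Starts held 45.4% within 500 bp and 63.3% with all gene types. CACGTG was in 92.4% of windows with both summits inside, and TCACGTGA in 49.6%. Alternatives chosen after seeing the data, either end of every gene (59.2%) and counts per peak or per gene, moved nothing further. The cause of these changes was not tested, beyond the smaller sets that the stricter rules leave. No paired analysis was possible because each group had 1 library and no test was run.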
